A study of Mus musculus with 8 samples.

Results

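Pyruvate dehydrogenase and the enzymes that switch it off and on were examined in the RNA sequencing of fasted female mouse liver. The genes were taken by name and were the kinases Pdk1, Pdk2, Pdk3 and Pdk4, the phosphatases Pdp1 and Pdp2, and the subunits Pdha1, Pdhb, Dlat and Pdhx. Each name matched 1 row of the gene table, which gives 10 of 45706 genes, and all 10 were among the 14629 genes kept by the filter on low counts. The question was whether these genes differ in the liver when PLIN5, a lipid droplet protein, cannot be phosphorylated at the serine that the S155A change replaces. WT mice (n = 4) were C57BL/6J females, and SA/SA mice (n = 4), labelled PLIN5 S155A, were females of the same strain in which that serine codon had been changed to alanine by CRISPR-Cas9. All 8 mice were 4 months old and were fasted overnight, so both genotypes share the fast and no fed liver was compared here. The edit was sequenced in a founder mouse, keeps the gene under its own promoter and is present in the whole body, so the liver is not the only tissue that carries it.

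The total estimated count was between 39709785 and 54540864 per mouse. The labels name the tissue as liver and the cell type as hepatocytes. Of 10 hepatocyte markers, 9 were matched by symbol, and their summed level was between 101300 and 139300 CPM (edgeR's counts per library size in the usual CPM scale, with the size adjusted by the trimmed mean of M values, TMM). Markers of Kupffer cells (187 to 435 CPM summed over 7 genes), endothelial cells (111 to 185 CPM over 6 genes) and stellate cells (98.8 to 297 CPM over 6 genes) were also present, and the values are therefore read as whole liver, in which fewer cells of a type and less RNA per cell cannot be told apart. Summed markers of skeletal muscle (at most 0.850 CPM) and adipocytes (at most 0.800 CPM), both tissues known for high Pdk4, were near 0, with Acta1, Myh4 and Lep at 0 in every mouse. SA/SA replicate 3 had 2062 CPM of lymphocyte and plasma cell markers against 18.7 to 45.7 CPM in the other mice. WT replicate 2 had 26.8 CPM of pancreatic acinar markers against at most 0.612 CPM in the others. Plin5 itself averaged 206 ± 32.3 CPM over the WT and 328 ± 118 CPM over the SA/SA animals (n = 4, SD; log2 fold change 0.67, adjusted p = 0.993; low and high series differences 0.92 and 0.29), and these counts do not show which codon a transcript carried. By their animal numbers in the labels, replicates 1 and 4 of both genotypes are low (under 200) and replicates 2 and 3 are high (over 800). These sets are called the low and the high series, what they stand for is not given, and for each member the 2 against 2 difference inside either one, in mean log2 CPM, is printed after the pooled value.

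The pyruvate dehydrogenase complex sits in the mitochondrial matrix and turns pyruvate into acetyl-CoA, the step that commits carbon from glucose to oxidation or to fat synthesis. Its E1 enzyme is made of the PDHA1 and PDHB proteins, E2 is DLAT, E3 is DLD, and PDHX tethers E3 to the core. PDK proteins phosphorylate PDHA1 and switch the complex off, and PDP proteins remove the phosphate and switch it on. In the fasted liver the complex is known to be held off while fatty acids are burned and pyruvate is kept for glucose synthesis, and PDK4 is the kinase best known to be induced by fasting, through PPARa, FOXO1 and glucocorticoids. The activity of the complex is set by phosphorylation, which RNA counts do not measure.

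No member passed edgeR's quasi-likelihood test between genotypes. The adjusted p of the 10 genes was at least 0.993, and 0 of 10 passed a threshold of 0.05, where 0 of all 14629 genes (0.00%) passed in edgeR and limma-voom and 6 passed in DESeq2, none of them a member. At an unadjusted p under 0.05 there were 0 of 10 members against 497 of all genes (3.40%). WT and SA/SA mice overlapped for every member, whereas 337 of all genes (2.30%) did not overlap. The median log2 fold change of the members was 0.013, with 6 higher and 4 lower in SA/SA mice, beside a median of -0.0050 over all genes tested. The standard error exceeded the size of the change in 9 of the 10 genes. Members differed from each other in how far single mice spread. Between the lowest and the highest mouse, Pdk3 ranged 12.2-fold at low counts, Pdk4 7.28-fold and Dlat 1.30-fold.

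**Figure D1:**
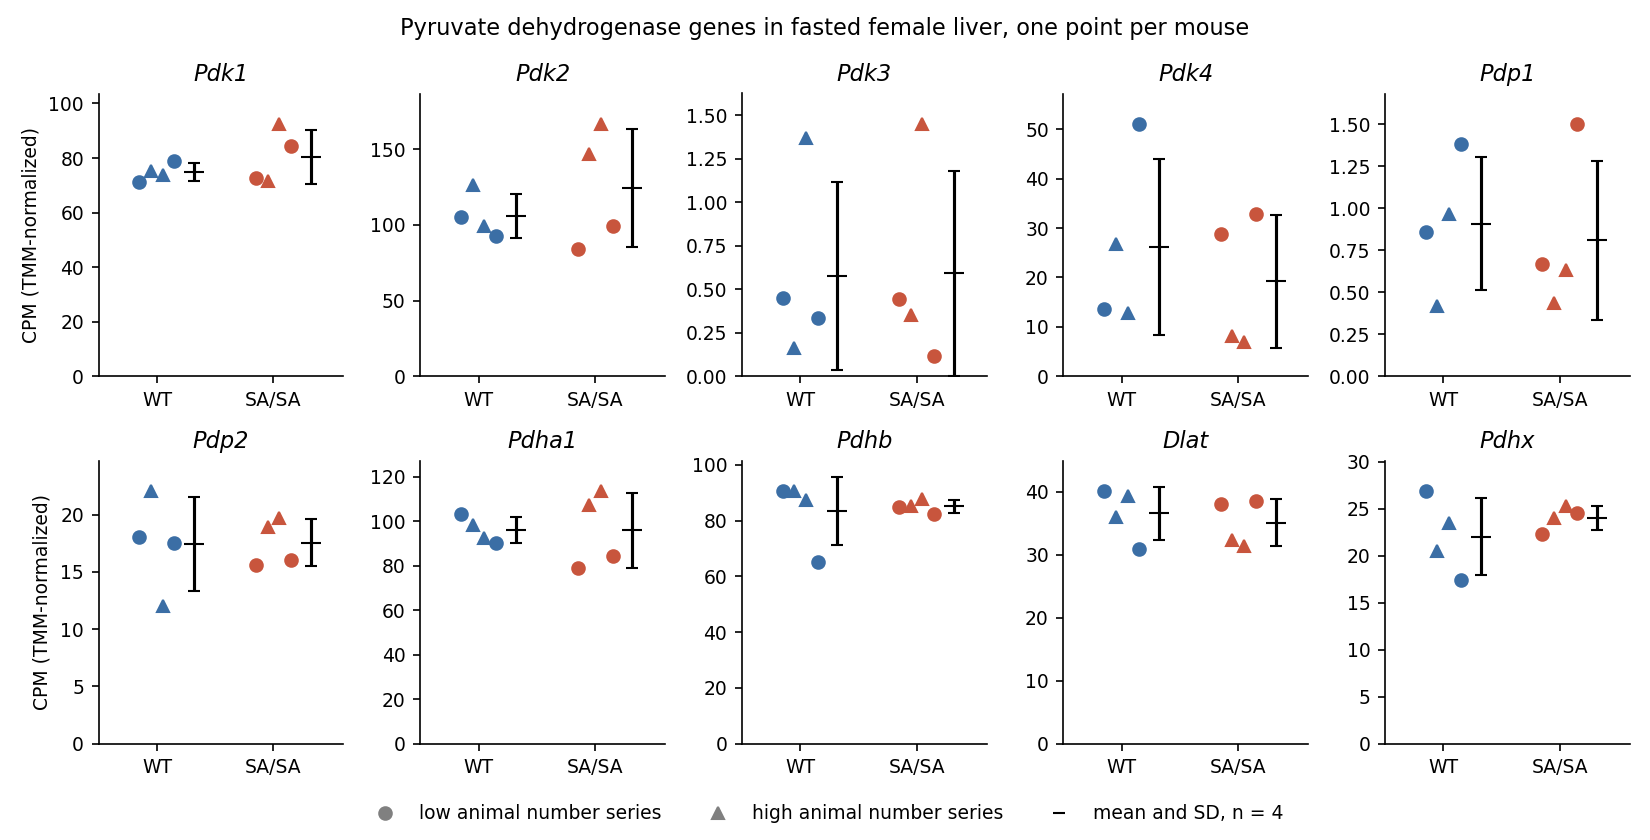
Expression of the 10 genes in CPM (vertical axis, from 0) in WT and SA/SA mice, with 1 point per mouse, circles for the low and triangles for the high animal number series, and the mean and SD (n = 4) at the right of each group. Pdk4 runs from 7.02 to 51.1 CPM over the 8 mice, while Dlat runs from 30.9 to 40.04 CPM.

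Pdk4 (ENSMUSG00000019577) is a gene of the reverse strand of chromosome 6 (GRCm38, 5483351 to 5496309). WT mice were at 13.7, 26.8, 12.8 and 51.1 CPM (replicates 1 to 4), and SA/SA mice were at 28.7, 8.11, 7.02 and 32.9 CPM. The highest mouse was a WT mouse and the lowest pair were the SA/SA mice of the high series, while the other SA/SA mice lay above the other 3 WT mice. WT mice averaged 26.1 ± 17.9 CPM and SA/SA mice 19.2 ± 13.5 CPM (SD, n = 4). The change in Pdk4 was -0.44 on the log2 scale with a standard error of 0.58 (adjusted p = 0.993 from edgeR), with a 95% interval that spanned 0 and reached from -1.73 to 0.84. An exact permutation test on log2 CPM, two-sided, gave p = 0.514, where the smallest p that 4 mice against 4 allow is 0.0286. The direction turned with 1 mouse, as the value was 0.11 without WT replicate 4, and it was -0.16 without SA/SA replicate 3, the mouse with lymphocyte markers, and -0.83 without SA/SA replicate 4. Inside the low series the SA/SA minus WT difference in mean log2 CPM was 0.21, and inside the high series it was -1.29.

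Pdk2 (ENSMUSG00000038967), the kinase found in most tissues, lies on chromosome 11 from 95026258 to 95041354 on the reverse strand. The antisense gene Gm11513 is annotated across it and had 0 counts in every mouse. WT mice were at 105, 126, 99.4 and 92.7 CPM, and SA/SA mice were at 84.0, 147, 167 and 99.0 CPM. The SA/SA mice of the high series were the highest of all 8, and the lowest mouse was also SA/SA. The log2 fold change was 0.23 (standard error 0.21, 95% interval -0.24 to 0.70, adjusted p = 0.993), and the exact permutation test gave p = 0.514. Without SA/SA replicate 3 it was 0.054. The low series gave a difference of -0.12 in mean log2 CPM and the high series gave 0.48.

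Pdk1 (ENSMUSG00000006494) encodes a kinase that is known as a target of hypoxia signalling, and lies on chromosome 2 from 71873224 to 71903858. It was even across mice, at 71.2, 75.4, 73.8 and 78.9 CPM in WT and 72.8, 71.6, 92.5 and 84.4 CPM in SA/SA mice. The 2 highest mice were SA/SA, and the other SA/SA mice lay within the WT range. Its log2 fold change was 0.10 (standard error 0.11, 95% interval -0.14 to 0.34, adjusted p = 0.993). The within-series differences were 0.065 and 0.13.

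Pdk3 (ENSMUSG00000035232), on chromosome X from 93764607 to 93832201, was low. It had 24, 8, 65 and 17 counts in WT mice and 24, 17, 55 and 6 counts in SA/SA mice. The highest mouse of each genotype was replicate 3. The log2 fold change of 0.016 had a standard error of 0.79 and a 95% interval of -1.75 to 1.78, which leaves a change of several-fold in either direction unresolved. Its low and high series differences were -0.62 and 0.53. Its sign changed under 8 of 17 alternatives.

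The kinases were set beside each other per length, as CPM divided by the length of all annotated exons of the gene in kilobases. Pdk2 was at 36.4 ± 9.17 CPM per kb, Pdk1 at 9.97 ± 0.960, Pdk4 at 6.45 ± 4.31 and Pdk3 at 0.228 ± 0.204 CPM per kb over all mice (SD, n = 8). The range of Pdk2 (26.6 to 52.8) was above that of every other kinase. The range of Pdk4 (2.0 to 14.6) spanned that of Pdk1 (9.15 to 11.9), but Pdk4 was above Pdk1 only in WT replicate 4, and in no mouse with the longest transcript as the length. Pdk2 made up 54.1% to 79.9% of the 4 kinases, Pdk1 15.9% to 21.2%, Pdk4 2.98% to 26.9% and Pdk3 at most 1.19%. The share of Pdk4 was 8.39%, 13.3%, 8.07% and 26.9% in WT replicates 1 to 4, and 18.5%, 3.98%, 2.98% and 18.2% in SA/SA replicates 1 to 4. In SA/SA mice it thus fell apart by animal number series, with both low series mice above both high series mice. In WT mice it did not, since replicate 1 of the low series was close to replicate 3 of the high series. The ratio of Pdk2 to Pdk4 ran from 2.01 in WT replicate 4 to 26.4 in SA/SA replicate 3, a range of 13.1-fold, whereas the summed kinase level ran from 44.3 to 67.2 CPM per kb, a range of 1.52-fold. Shares are given as a description without a test.

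**Figure D2:**
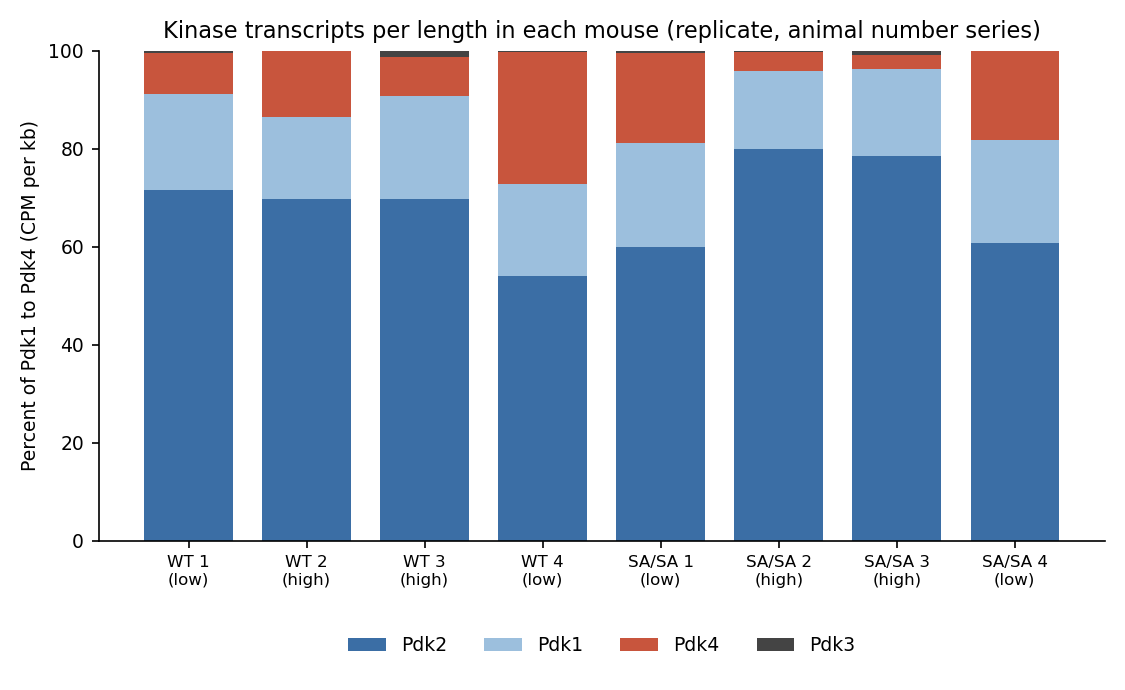
Share of Pdk1, Pdk2, Pdk3 and Pdk4 in the sum of the 4 kinases (percent of CPM per kb, vertical axis) in each of the 8 mice, with the replicate number and animal number series under each bar. Pdk2 is the largest part of every bar, and the Pdk4 part varies from 2.98% (SA/SA 3) to 26.9% (WT 4).

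As Pdk4 and Pdk2 were the kinases that varied most among those at a mean of at least 5 CPM, their promoters are shown for comparison. The stretches are from RefSeq (GRCm38.p6) and end just before the outermost annotated start of each gene, written 5′ to 3′ on the strand of the gene, with capitals for matches to the motifs named after them. They lie on the reverse strand at chr6:5496310-5496528 for Pdk4 and chr11:95041372-95041621 for Pdk2. A promoter entry was found for 9 of the 10 genes, all but Pdp1.
Pdk4: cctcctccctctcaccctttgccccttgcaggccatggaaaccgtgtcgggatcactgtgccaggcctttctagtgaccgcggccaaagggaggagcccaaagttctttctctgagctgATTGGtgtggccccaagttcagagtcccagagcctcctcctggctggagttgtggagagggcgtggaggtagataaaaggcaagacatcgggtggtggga
Pdk2: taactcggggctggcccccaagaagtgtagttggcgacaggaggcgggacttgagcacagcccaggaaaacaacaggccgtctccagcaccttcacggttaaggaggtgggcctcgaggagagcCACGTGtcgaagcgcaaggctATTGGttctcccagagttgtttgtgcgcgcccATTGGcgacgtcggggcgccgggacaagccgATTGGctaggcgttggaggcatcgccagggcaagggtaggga
Both strands were searched for 6 motifs, and no match overlapped another. The CCAAT box (CCAAT, read as ATTGG on the other strand) occurred 1 time in the Pdk4 stretch of 219 bases and 3 times in the Pdk2 stretch of 250 bases, where 30.9% and 33.8% of all 32851 promoter entries hold it in windows of those lengths. The E-box CACGTG occurred 1 time in Pdk2, as in 6.02% of promoters, and 0 times in Pdk4. The TATA box TATAAA, the GC box GGGCGG, the nuclear receptor half-site AGGTCA and the forkhead motif TGTTTAC were not matched in either stretch. They are in 12.4%, 32.7%, 14.0% and 3.17% of promoters in windows of 250 bases. These are matches of letters in a short window and say nothing of binding.

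In every mouse the summed phosphatases were below the summed kinases per length. Pdp2 (ENSMUSG00000048371), on chromosome 8 from 104591451 to 104599026, encodes the catalytic phosphatase that is known to respond to insulin. It was at 18.1, 22.0, 12.0 and 17.5 CPM in WT and 15.6, 18.9, 19.7 and 16.02 CPM in SA/SA mice. All SA/SA mice lay within the WT range. The log2 fold change was 0.010 (standard error 0.18, 95% interval -0.38 to 0.40, adjusted p = 0.9997 from edgeR). Its low and high series differences were -0.17 and 0.24. Pdp1 (ENSMUSG00000049225), on chromosome 4 from 11958184 to 11966452, encodes the calcium-sensitive phosphatase that prevails in muscle. It was low here, with 46, 21, 46 and 70 counts in WT mice and 36, 21, 24 and 76 counts in SA/SA mice. The genotypes overlapped throughout, and the log2 fold change was -0.16 (standard error 0.47, 95% interval -1.21 to 0.89), with series differences of -0.11 and -0.27. Pdp2 made up 89.4% to 97.7% of the pair per length. The summed kinases stood at 13.8 to 19.4 times the summed phosphatases per length in WT mice and at 15.35 to 18.7 times in SA/SA mice. This ratio depended on the length used. With the longest annotated transcript it was 19.2 to 26.8 in WT and 20.7 to 26.3 in SA/SA mice.

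The subunits of the complex ranged at most 1.54-fold between mice. Pdha1 (ENSMUSG00000031299), on chromosome X from 160122209 to 160138413, encodes the E1 subunit that the kinases phosphorylate, and its 3′ end overlaps Map3k15 on the opposite strand, which had 37 to 104 counts per mouse. WT mice were at 103, 98.2, 92.6 and 90.1 CPM, and SA/SA mice were at 78.8, 107, 114 and 84.3 CPM. The means were alike, at 96.0 ± 5.84 and 95.9 ± 17.0 CPM (SD, n = 4), yet all WT mice lay between the low series and the high series of SA/SA mice. The log2 fold change was -0.0016 (standard error 0.13, 95% interval -0.29 to 0.29, adjusted p = 0.9998). SA/SA minus WT came to -0.24 in mean log2 CPM for the low series and to 0.21 for the high series, without overlap in either. An opposite and non-overlapping pair of this kind was found for 1 of the 10 members and for 9.48% of all genes.

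Pdhb (ENSMUSG00000021748), on chromosome 14 from 8165996 to 8173025, encodes the other E1 subunit. It was at 90.5, 90.5, 87.3 and 65.2 CPM in WT and 85.0, 85.2, 87.8 and 82.4 CPM in SA/SA mice. WT replicate 4 was the only mouse under 80 CPM. The log2 fold change was 0.029 (standard error 0.12, 95% interval -0.23 to 0.29), and it was -0.072 without WT replicate 4. The series differences were 0.12 and -0.040. Dlat (ENSMUSG00000000168), on chromosome 9 from 50634633 to 50659780, encodes the E2 acetyltransferase. It was at 40.04, 36.0, 39.3 and 30.9 CPM in WT and 38.0, 32.4, 31.3 and 38.6 CPM in SA/SA mice, with every SA/SA mouse inside the WT range. Its log2 fold change was -0.059 (standard error 0.12, 95% interval -0.32 to 0.20), and the series differences were 0.12 and -0.24. Pdhx (ENSMUSG00000010914), on chromosome 2 from 103021075 to 103073513, encodes the E3-binding protein. It was at 26.9, 20.5, 23.4 and 17.4 CPM in WT and 22.3, 24.0, 25.3 and 24.6 CPM in SA/SA mice, which again lay inside the WT range. Its log2 fold change was 0.12 (standard error 0.13, 95% interval -0.18 to 0.42), and the series differences were 0.12 and 0.17. Over all members, 7 of 10 had a difference of opposite sign in the low and the high series. The lowest mouse for Pdhb, Dlat and Pdhx was WT replicate 4, which had the highest Pdk4. The same mouse had the most endothelial (185 CPM), stellate (297 CPM) and red blood cell (2427 CPM) marker RNA, and the part of these in its values was not tested.

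**Figure D3:**
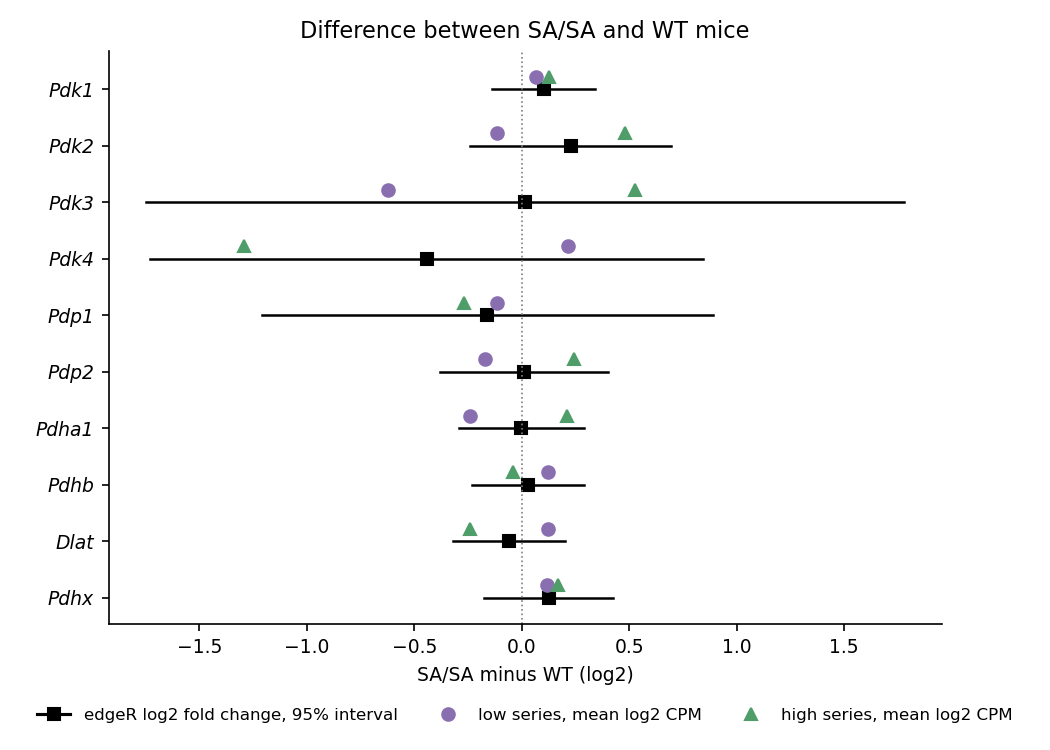
Difference between SA/SA and WT mice on the log2 scale (horizontal axis) for the 10 genes. Squares and bars are edgeR's log2 fold changes with 95% intervals over 8 mice, and circles and triangles are differences in mean log2 CPM within the low and high animal number series (2 against 2 mice). Every interval spans 0, and the intervals of Pdk3, Pdk4 and Pdp1 are the widest.

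Per length, the subunits fell into an upper and a lower tier. Pdha1 was at 25.7 ± 3.14 CPM per kb, Pdhb at 21.8 ± 2.12 and Dld at 21.2 ± 1.74 (SD, n = 8), with ranges that overlapped, so no order among them was resolved. Dlat at 7.33 ± 0.770 and Pdhx at 5.86 ± 0.756 CPM per kb overlapped each other and lay below those. Pdk2 was above Pdha1 in mean, with overlapping ranges, and the summed kinases were at 1.68 to 2.28 times Pdha1 in every mouse. Taking the longest annotated transcript as the length changed the order in these places, in that Pdhb (35.4 CPM per kb) came before Pdha1 (33.7) and Pdhx (9.19) before Dlat (8.87) and Pdk4 (6.50). The longest Pdhb transcript is annotated as 1 exon of 2377 bases, so the place of Pdhb here rests on an unspliced model.

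The spread between mice was compared with that of the 8852 named genes at a mean of at least 5 CPM, whose median SD of log2 CPM over 8 mice was 0.20. Pdk4 had an SD of 1.02, above 99.2% of these genes, Pdk2 one of 0.34, above 83.7%, and Pdp2 one of 0.26, above 70.4%. The SD was 0.13 for Pdk1, 0.15 for Pdhb, 0.15 for Dlat, 0.18 for Pdha1 and 0.20 for Pdhx, which were all below the median.

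The animal number series were also compared with each other. In a fit with genotype and series as terms, the high series was lower in Pdk4 by a log2 difference of -1.36 (standard error 0.44, adjusted p = 0.272 over all genes from edgeR) and higher in Pdk2 by 0.48 (standard error 0.15, adjusted p = 0.255). Pdk4 averaged 31.6 ± 15.4 CPM in the low and 13.7 ± 9.12 CPM in the high series, and Pdk2 averaged 95.2 ± 9.11 and 135 ± 28.8 CPM (SD, n = 4), and the series overlapped for both genes. These were the 2 of 10 members at an unadjusted p under 0.05, where 12.8% of all genes were, and 0 members and 0 genes (0.00%) passed after adjustment. Whether the genotype difference itself differed between the series was tested as an interaction. It was 0.59 for Pdk2 (standard error 0.23, adjusted p = 0.400), 0.45 for Pdha1 (standard error 0.17, adjusted p = 0.397) and -1.31 for Pdk4 (standard error 0.76, adjusted p = 0.568). An unadjusted p under 0.05 was reached by Pdk2 and Pdha1, or 2 of 10 members, where 11.1% of all genes reached it, and 0 of 14629 genes (0.00%) passed after adjustment. With the series as a term, the genotype difference of Pdk4 was -0.72 (standard error 0.43, adjusted p = 0.945).

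Among the 45 pairs of members, log2 CPM over the 8 mice was most alike for Pdk2 and Pdha1 (Pearson r = 0.89, exact permutation p = 0.00300, adjusted over 45 pairs 0.135; Spearman rho = 0.95, exact permutation p = 0.00114, adjusted 0.0513). Without the 2 mice farthest from the median of Pdk2, which were SA/SA replicates 2 and 3, r was 0.75, and with both genes centred on each series it was 0.82. Pdk4 ran against Pdha1 (r = -0.78, exact permutation p = 0.0270, adjusted 0.466; rho = -0.83, exact permutation p = 0.0154, adjusted 0.231), with r = -0.765 without WT replicate 4 and SA/SA replicate 3 and -0.62 after centring. Pdk4 also ran against Pdk2 (r = -0.75, exact permutation p = 0.0375, adjusted 0.466; rho = -0.83, exact permutation p = 0.0154, adjusted 0.231). For Pdk4 and Pdk2, r was -0.25 without SA/SA replicates 2 and 3, the mice farthest from the median of Pdk2, and -0.51 after centring. For Pdk4 with Pdha1 or Pdhx, the mice left out were those farthest from the median of Pdk4. As different mice were left out, these values cannot be set against each other. For Pdk4 and Pdhx, r was -0.71 (exact permutation p = 0.0414, adjusted 0.466) and rho was -0.55 (exact permutation p = 0.171, adjusted 0.481), with r = -0.40 without WT replicate 4 and SA/SA replicate 3. By Pearson's r, 0 of 45 pairs passed after adjustment and 4 had an unadjusted p under 0.05. A series alone holds 4 mice, too few for a correlation within it. SA/SA replicates 2 and 3, with the lowest Pdk4 and the highest Pdk2 and Pdha1, also had the highest summed hepatocyte markers (135300 and 139300 CPM, against at most 120900 CPM in the others), and the part of this in the relations was not tested.

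**Figure D4:**
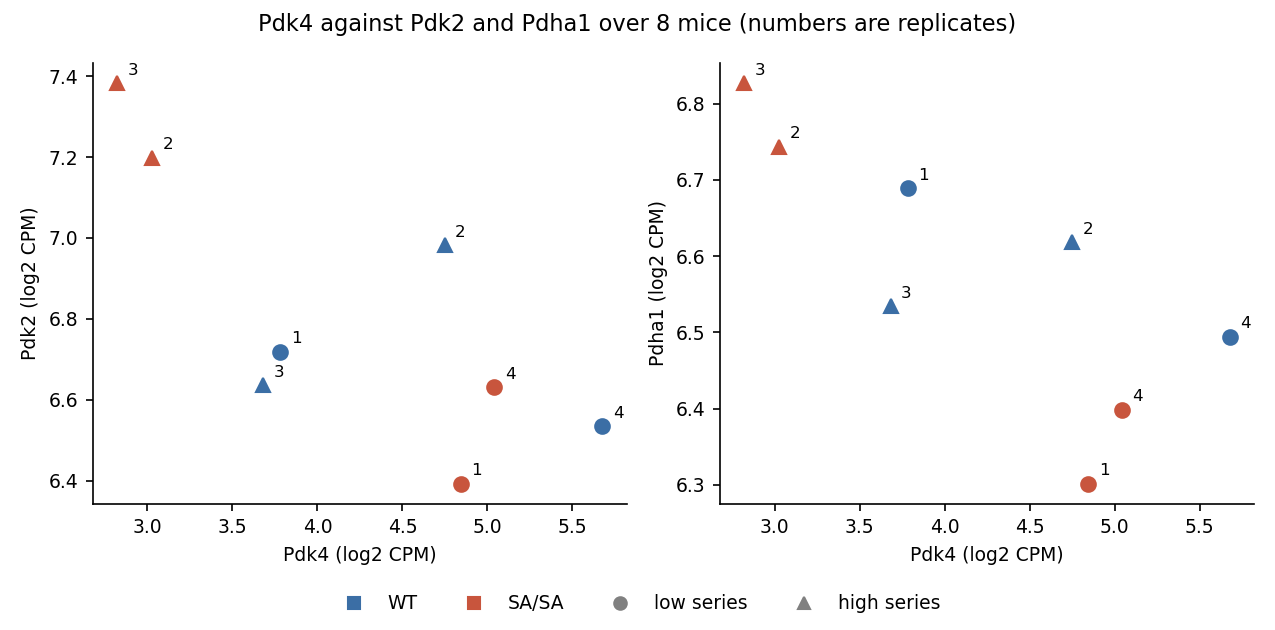
Pdk4 (horizontal axis) against Pdk2 and Pdha1 (vertical axes), all in log2 CPM, with 1 point per mouse, colour for genotype, shape for animal number series and the replicate number beside each point. SA/SA replicates 2 and 3 stand at the upper left of both panels, with the lowest Pdk4 and the highest Pdk2 and Pdha1.

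The genes whose pattern over the 8 mice was most like that of Pdk4 were Orai3 (Pearson r = 0.97, Spearman rho = 0.98), Rhou (0.97 and 1.0), Kcnj8 (0.95 and 0.98), Senp2 (0.94 and 0.86) and Zfp319 (0.94 and 0.95). They were taken as the largest of 8851 values of r and so carry no p. Orai3 encodes a calcium channel subunit, Kcnj8 a potassium channel subunit and Senp2 a SUMO protease. Their levels moved far less than Pdk4, from 15.8 to 24.7 CPM for Orai3 and from 55.3 to 86.4 CPM for Rhou. The 8 points share genotype, animal number series and library effects.

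The neighbouring genes of the pathway were examined as lists, and 0 genes on them passed an adjusted p of 0.05. Dld, the E3 subunit shared with other complexes, was at 76.6 ± 4.61 CPM in WT and 79.3 ± 8.36 CPM in SA/SA mice (n = 4, SD; log2 fold change 0.049, standard error 0.10, adjusted p = 0.996 from edgeR). Pdpr, the regulatory subunit of the phosphatase, was at 11.6 ± 1.83 and 10.97 ± 1.02 CPM (log2 fold change -0.087, standard error 0.14, adjusted p = 0.993). Pdha2, the testis form of E1, had 0 counts in every mouse. Mpc1 and Mpc2, the pair of proteins that form the carrier that brings pyruvate into mitochondria, had log2 fold changes of 0.021 (standard error 0.097) and 0.051 (standard error 0.12). Mpc1 was between 239 and 288 CPM and Mpc2 between 190 and 255 CPM over the 8 mice.

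Of 6 transport genes, 4 were higher and 2 lower in SA/SA mice (median log2 fold change 0.011). Of 11 genes that make or use pyruvate, 8 were higher and 3 lower (median 0.12), with the widest value of 0.99 for Me3, a malic enzyme at under 1 CPM in every mouse. Of 9 genes for attaching lipoic acid, the cofactor of E2, 4 were higher and 5 lower (median -0.00032). Of 8 tested genes of the sister 2-oxoacid dehydrogenases and the kinase and phosphatase of the branched-chain complex, 5 were higher and 3 lower (median 0.0070). Of 15 genes of the citric acid cycle, which takes up the acetyl-CoA, 13 were higher and 2 lower (median 0.086). The median over all genes tested was -0.0050, and the counts of genes in each direction carry no test. None of these 5 lists held a gene at an unadjusted p under 0.05. The 18 genes for known regulators of Pdk4, such as PPARa, FOXO1 and the glucocorticoid receptor, had 9 higher and 9 lower (median -0.0022). Of these 18 genes, 1 was at an unadjusted p under 0.05 in edgeR, where 3.40% of all genes were. This was Ncor1, a corepressor of nuclear receptors, at 96.6, 73.3, 80.8 and 83.6 CPM in WT and 79.2, 60.2, 69.5 and 69.2 CPM in SA/SA mice. Its groups overlapped, with -0.27 on the log2 scale (standard error 0.12, adjusted p = 0.993; exact permutation p = 0.0571), and low and high series differences of -0.28 and -0.25.

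**Figure D5:**
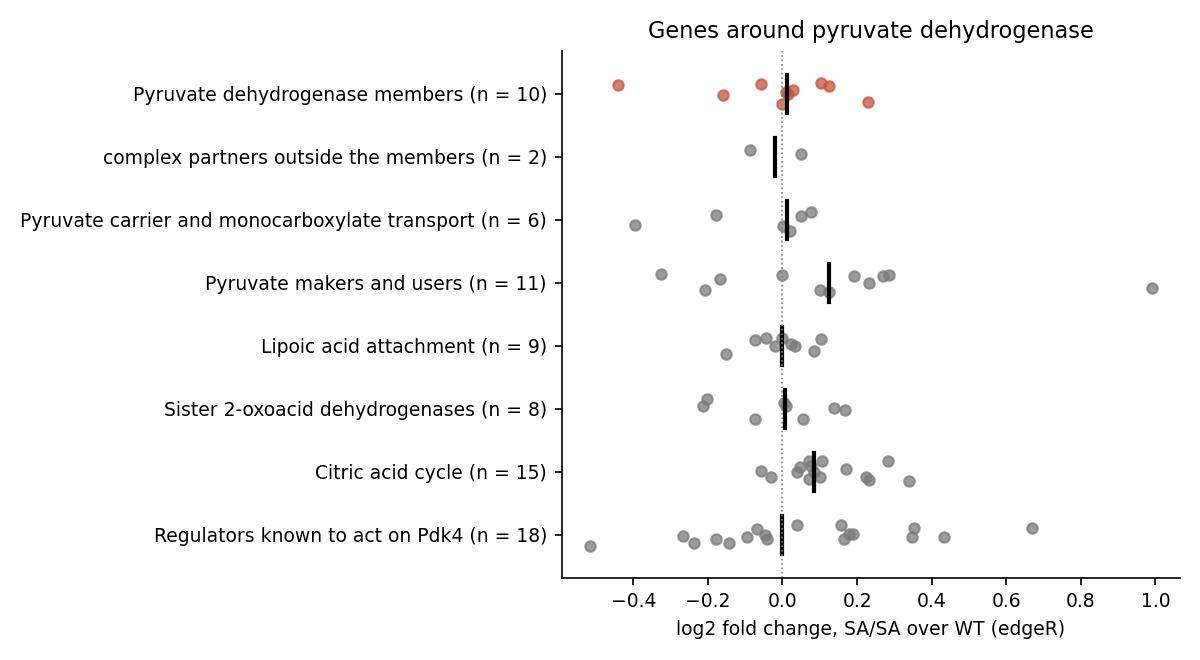
Log2 fold changes of SA/SA over WT mice (horizontal axis) for the 10 pyruvate dehydrogenase genes and for 7 lists of neighbouring genes, with 1 point per gene and a bar at each list's median. The list medians lie between -0.019 (complex partners) and 0.12 (pyruvate makers and users).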

How the data were processed

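Liver RNA from 8 female mice was sequenced by the authors as stranded mRNA libraries in 100 bp pairs, and the submitters' processing notes list bcl2fastq, STAR, SAMtools, MultiQC, DESeq2 and build GRCm38. The deposited values are estimated counts per gene from salmon, which the authors scaled for average transcript length and did not normalize for library size. The salmon version, annotation and use of strand are not given in the sources used here. Columns were matched to mice by animal number. Estimated counts were rounded, filtered with filterByExpr and tested with the quasi-likelihood test of edgeR 4.0.16 (R 4.3.3) after TMM normalization, with Benjamini-Hochberg adjustment over all 14629 genes. Standard errors and intervals come from the F statistic, log2 CPM uses a prior count of 2, and lengths and coordinates are from GENCODE release M21. The tests were also run on simulated counts with known changes, drawn independently for each mouse. Their power with 4 mice per genotype is not given here. Separate animals give the replicates. DESeq2 1.42.0, limma-voom (limma 3.58.1), 3 other scalings, 2 other filters, a robust fit, blocks for replicate number and animal number series, and leaving out each mouse were tried.

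The members, the lists and the alternatives were chosen with earlier results of these data known. The genes named are the members, Plin5, Dld, Pdpr, Mpc1 and Mpc2, list genes that passed the adjusted threshold or up to 2 per list at an unadjusted p under 0.05, and the 5 genes most like Pdk4 or the mean of the subunits in Pearson's r. Me3, which the rule did not give, was named after its value was seen. Marker lists of cholangiocytes (5.17 to 11.3 CPM summed) and red blood cells (375 to 2427 CPM) were read as well.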

Additional observations from a re-analysis of the deposited data

Results flagged for a closer look

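A search for a mouse that stood apart in its genotype, over 10 genes in 2 genotypes (20 groups of 4), found 1, where about 1 is found by chance. This was WT replicate 4 for Pdhb, whose level of 65.2 CPM compares with 87.3 to 90.5 CPM among the remaining WT animals.

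For Pdha1, both SA/SA mice of the low animal number series were below both WT mice of that series and both SA/SA mice of the high series were above both WT mice of theirs. The interaction, the SA/SA minus WT difference in the high series minus that in the low series, was 0.45 on the log2 scale (standard error 0.17). It did not pass after adjustment over all genes (adjusted p = 0.397 with edgeR, 0.346 with DESeq2). The same opposite and non-overlapping arrangement held for 1387 of 14629 genes (9.48%).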

How the results depend on the processing

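No member passed an adjusted p of 0.05 under any of 18 alternatives, where the smallest adjusted p was 0.798. The number of genes called was 0 with each alternative except DESeq2, which called 6, and with each mouse left out in turn it stayed from 0 to 0, as did the number of members. Of 178 log2 fold changes of members under the alternatives, 153 kept their sign and 25 did not, all of them from changes smaller than their standard error, and the cause was not tested. Replicate numbers were not taken as pairs, since they are only names in the labels. The deviations of same-numbered mice correlated by 0.057, 0.17, -0.11 and 0.13, and those of differently numbered mice by -0.19 to 0.14. With the replicate block 0 genes were called, and Pdk3 was -0.035. Pdk3 was also -0.12 with limma-voom, -0.059 with library size alone and -0.097 with the animal number series block. With library size alone Pdp2 was -0.027 and Pdhb was -0.0055. Pdha1 was 0.0019 with DESeq2, 0.0020 with DESeq2 size factors, 0.0028 with scaling without the 50 most abundant genes and 0.0013 with the filter of 1 CPM in 4 mice, which left out Pdk3 and Pdp1. When each mouse was dropped in turn, log2 fold changes lay from 0.029 to 0.16 for Pdk1, 0.054 to 0.38 for Pdk2, -0.91 to 0.88 for Pdk3, -0.83 to 0.11 for Pdk4, -0.65 to 0.12 for Pdp1, -0.13 to 0.14 for Pdp2, -0.092 to 0.082 for Pdha1, -0.072 to 0.076 for Pdhb, -0.13 to -0.0072 for Dlat and 0.027 to 0.24 for Pdhx. The value of Pdp1 was 0.12 without WT replicate 4 and 0.053 without SA/SA replicate 2. The interactions kept their sign with DESeq2. With the longest transcript as the length, levels were 14.96 CPM per kb for Pdk1, 51.2 for Pdk2, 33.7 for Pdha1, 35.4 for Pdhb, 8.87 for Dlat and 9.19 for Pdhx. Pdk3 and Pdp1 had only 6 to 76 counts per mouse, and the part of this in their wide intervals was not tested.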

Other observations

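The mean log2 CPM of the subunits Pdha1, Pdhb, Dlat and Pdhx ran over the 8 mice most like Gfm2 (Pearson r = 0.96, Spearman rho = 0.93), Pdzd11 (0.94 and 0.83), Sco1 (0.94 and 0.95), Recql5 (0.94 and 0.90) and Uqcrc2 (0.93 and 0.64). These were the largest of 8848 values of r and carry no p. Gfm2 encodes a factor of mitochondrial ribosome recycling, Sco1 a copper chaperone for cytochrome c oxidase and Uqcrc2 a subunit of respiratory complex III. All of these matches were lowest in WT replicate 4. Levels there were 34.3 CPM for Gfm2, 11.1 CPM for Pdzd11, 7.44 CPM for Sco1, 14.5 CPM for Recql5 and 166 CPM for Uqcrc2. In the same order, their highest levels in any mouse were 47.2, 17.7, 11.01, 22.2 and 232 CPM. Pdhb, Dlat and Pdhx were also lowest in that mouse, so low values there follow in part from how the matches were chosen.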
